A study of Mus musculus with 14 samples.

Results

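The nuclear genes of the respiratory chain were followed in mouse embryonic stem cells (ESCs) labelled as knockout or wild type for Rcor2. They were chosen by name, as the genes of the count table whose symbol starts with Nduf, Uqcr, Cox4 to Cox8 or Atp5, together with Sdha, Sdhb, Sdhc and Sdhd. No cutoff on a measured value was used, but earlier results of these data were known when the set was chosen. This gave 95 of 25131 genes, of which 87 had enough reads to be tested. RNA-seq compared 2 libraries of Rcor2 knockout (KO) ESCs with 2 libraries of wild-type (WT) ESCs, both of the C57BL/6 background, and chromatin immunoprecipitation (ChIP) of HA-tagged RCOR2, expressed in WT ESCs, located where the protein binds. The ChIP had 2 libraries, with pull-downs from untagged WT and mCherry-expressing ESCs as controls. Serum, leukemia inhibitory factor and the 2i compounds PD0325901 (against MEK) and CHIR99021 (against GSK3) were in the medium of all groups. The labels give neither the deleted part of Rcor2 nor a separate clone or culture for each library, so a p-value speaks only to the scatter of these 4 libraries, part of which may be technical.

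Depth was 2951498 and 1974865 counts in KO and 2368804 and 1286393 in WT. Rcor2 itself was counted 157 and 103 times in KO and 193 and 107 times in WT (log2 fold change −0.59, SE 0.23, edgeR adjusted p = 0.0636), which does not check the genotype while the deleted part is not given. The 10 pluripotency markers summed to 4584 to 4587 counts scaled to library size (CPM) in KO and 4206 to 4491 in WT. Of them 2 were called higher, Klf4 (log2 fold change 1.30) and Nanog (log2 fold change 0.48), and 2 lower, Dppa5a (log2 fold change −0.47) and Fgf4 (log2 fold change −0.83). That is 40% called, against 19.7% of all tested genes. The Nanog call was lost without KO replicate 1 (0.46) or 2 (0.51). That of Dppa5a was lost without KO replicate 1 (−0.35) or 2 (−0.59) and without WT replicate 1 (−0.31). With each chromosome centred on the median of its genes, 1 was called higher and 4 lower. Among the lower were Nanog of chromosome 6 (log2 fold change −0.44, edgeR adjusted p = 0.0362) and Sox2 of chromosome 3 (log2 fold change −0.72, edgeR adjusted p = 0.00019). The 9 feeder fibroblast markers summed to 43.1 to 43.9 CPM in KO and 41.7 to 53.3 in WT, and 2 of these had enough reads to be tested. Respiratory chain genes took 3.64% to 3.67% of the counts in KO and 3.89% to 4.22% in WT.

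The respiratory chain sits in the inner mitochondrial membrane. Complex I takes electrons from NADH and complex II from succinate, complex III passes them from ubiquinol to cytochrome c, complex IV passes them to oxygen, and complex V, the ATP synthase, uses the proton gradient that complexes I, III and IV build. Mitochondrial DNA encodes a few core subunits of complexes I, III, IV and V, while the nuclear genome encodes all other subunits, so nuclear genes spread over many chromosomes have to supply parts of one machine in matched amounts. Naive ESCs are known to respire as well as to use glycolysis. The mitochondrially encoded subunits were not analysed here.

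In KO cells 8 of the 87 tested genes rose and 16 fell, or 24 in all (27.6%, against 19.7% of all tested genes), at an adjusted p under 0.05 (edgeR quasi-likelihood test, with Benjamini-Hochberg adjustment over all 10241 tested genes). Among all tested genes 10.4% rose and 9.3% fell, so the share of respiratory chain genes that rose, 9.20%, lay near the background, and the share that fell, 18.4%, lay above it. Their median log2 fold change, KO over WT, was −0.14, beside −0.02 over all tested genes, and 57 of the 87 were below 0. Changes were small in size: apart from Cox7b2, every tested member lay between −1.05 and 0.85 on the log2 scale. Cox7b2, 1 of the 16 that fell, had enough reads for a test in the WT libraries alone, so its test could only give a fall. In 42 members both KO libraries were below both WT libraries (48.3%, against 28.8% of all tested genes), and in 17 both were above (19.5%, against 28.1%). In bulk RNA, fewer cells of a type and less RNA per cell cannot be told apart.

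The counts depended on the libraries. In the fits with a library left out, the share of all tested genes called was not taken. The counts below are therefore not read as particular to the respiratory chain genes. With KO replicate 1 left out 4 members were called higher and 7 lower, and with KO replicate 2 left out 4 and 5. Without WT replicate 1, 11 were called higher and 10 lower, and the median of the members was −0.0053, beside 0.0068 over all tested genes. Without WT replicate 2, 7 were called higher and 19 lower, with a median of −0.23 beside 0.01. WT replicate 1 had the largest share of counts in respiratory chain genes of the 4 libraries.

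The members called were unevenly spread over chromosomes. Genes of chromosomes 3, 6 and 8 were higher as a whole in these KO libraries and genes of chromosome 11 lower, with medians over all tested genes of 0.48, 0.92, 0.52 and −0.49. These chromosomes hold 15 respiratory chain genes, and 11 of them were called, 6 higher and 5 lower (73.3%, against 37.6% of all tested genes there, 24.5% higher and 13.2% lower). On the other chromosomes 13 of 72 were called, 2 higher and 11 lower (18.1%, against 14.1%, 6.02% higher and 8.09% lower). With each chromosome centred on the median of its tested genes, 2 members were called higher and 12 lower, while 12.9% of all tested genes were called, 6.28% higher and 6.67% lower. What moved these chromosomes was not tested.

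**Figure D1:**
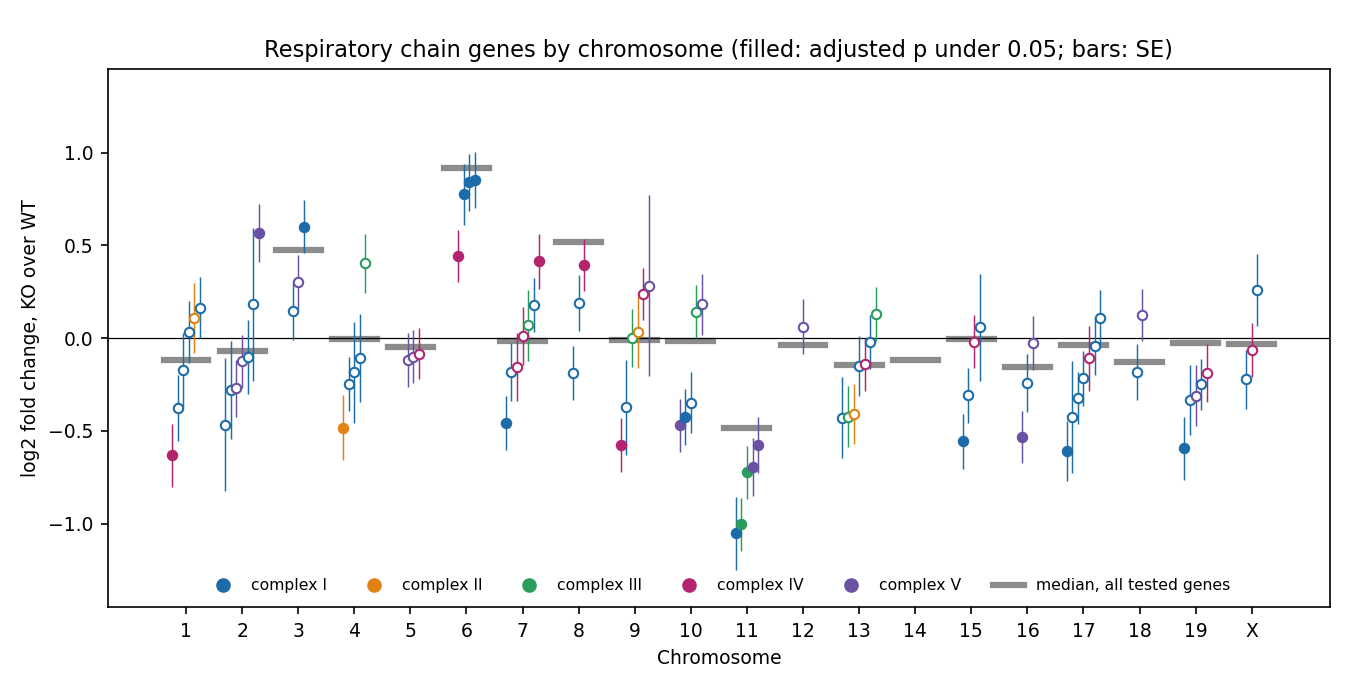
Log2 fold change, KO over WT, of each tested respiratory chain gene (points, with SE bars) by chromosome, coloured by complex and filled where the adjusted p was under 0.05; grey bars give the median of all tested genes of the chromosome. The 4 points on chromosome 6 lie above 0 and below its median of 0.92, and the 5 on chromosome 11 all lie below 0; centred on the chromosome, the chromosome 6 points lie below 0. Cox7b2 on chromosome 5 lies below the axis.

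All 4 respiratory chain genes of chromosome 6 rose, where 56.2% of all tested genes did. Ndufb2, an accessory subunit of the membrane arm of complex I, had 642 and 606 CPM in the KO libraries, against 389.9 and 299 CPM in the WT libraries (log2 fold change 0.85, SE 0.15, edgeR adjusted p = 2.08e-05), and was at −0.07 centred on the chromosome. Ndufa5, an accessory subunit of the arm that protrudes into the matrix, had 437 and 497 CPM in KO, against 246 and 277 CPM in WT (log2 fold change 0.84, SE 0.15, edgeR adjusted p = 3.46e-05), at −0.08 centred. Ndufa9, which sits where the arms of complex I meet, had 289.9 and 284 CPM in KO, against 164 and 171 CPM in WT (log2 fold change 0.77, SE 0.16, edgeR adjusted p = 0.000301), at −0.14 centred. In each of these genes both KO libraries lay above both WT libraries, and the centred value differed from 0 by less than its SE. Ndufa4, named for complex I but a subunit of complex IV, rose less, with 989.5 and 1013 CPM in KO, against 748 and 724 CPM in WT (log2 fold change 0.44, SE 0.14, edgeR adjusted p = 0.0185). It lay below its chromosome's median and was called lower after centring, at −0.48 (SE 0.14, edgeR adjusted p = 0.0157). The call of Ndufa4 as fitted was lost without KO replicate 1 (0.46) and without KO replicate 2 (0.43), and those of the other 3 were kept with any 1 library left out.

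All 5 members on chromosome 11 fell, where 31.1% of all tested genes did. Uqcrq, a small membrane subunit of complex III, had 501 and 494 CPM in KO, against 1058 and 937 CPM in WT (log2 fold change −1.004, SE 0.14, edgeR adjusted p = 2.45e-07). Ndufaf8, an assembly factor of complex I, had 67.6 and 105 CPM in KO, against 184 and 168 CPM in WT (log2 fold change −1.05, SE 0.20, edgeR adjusted p = 4.72e-05). Both were still called lower after centring, Uqcrq at −0.52 (edgeR adjusted p = 0.0089) and Ndufaf8 at −0.57 (edgeR adjusted p = 0.0446). Uqcr10, another small subunit of complex III, had 975 and 1156 CPM in KO, against 1781 and 1734 CPM in WT (log2 fold change −0.72, SE 0.14, edgeR adjusted p = 9.4e-05). Atp5h, subunit d of the stalk that holds the ATP synthase still, had 232 and 236 CPM in KO, against 410.2 and 344 CPM in WT (log2 fold change −0.69, SE 0.16, edgeR adjusted p = 0.000711). Atp5g1, 1 of the 3 genes for the ring of c subunits that turns in the membrane, had 301 and 297 CPM in KO, against 455 and 437 CPM in WT (log2 fold change −0.58, SE 0.15, edgeR adjusted p = 0.00363). These 3 were not called after centring, at −0.24, −0.21 and −0.09. In all 5 genes both KO libraries were below both WT libraries. The call of Uqcr10 was lost without KO replicate 1 (−0.60), and that of Atp5g1 without KO replicate 1 (−0.59) or 2 (−0.57).

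Chromosomes 3 and 8 hold 3 members each, of which 1 each rose. On chromosome 3, Ndufc1, an accessory subunit of complex I, had 1127 and 1242 CPM in KO, against 767 and 795 CPM in WT (log2 fold change 0.60, SE 0.14, edgeR adjusted p = 0.00114), at 0.12 centred; 26.2% of all tested genes of that chromosome rose. The complex I accessory subunit Ndufb5 (0.14, SE 0.15, −0.33 centred) and the ATP synthase stalk subunit Atp5f1 (0.30, SE 0.14, −0.17 centred) were not called, although Atp5f1 was called higher without WT replicate 1 (0.44). On chromosome 8, where 29.4% of all tested genes rose, Cox4i1, the widely expressed form of complex IV subunit 4, had 1632 and 1662 CPM in KO, against 1286 and 1219.8 CPM in WT (log2 fold change 0.39, SE 0.14, edgeR adjusted p = 0.036), and was at −0.12 centred. Ndufa13, a complex I accessory subunit also known as GRIM-19, had 493 and 449 CPM in KO, against 553 and 519.6 CPM in WT (−0.19, SE 0.15), KO below WT in every library, and was called lower after centring alone, at −0.70 (SE 0.15, edgeR adjusted p = 0.000469). Ndufb7 was at 0.19 (SE 0.15), or −0.33 centred. The call of Ndufc1 was lost without KO replicate 2 (0.53). That of Cox4i1 was lost without KO replicate 1 (0.41) or 2 (0.38). It was also lost with libraries scaled by their size alone (0.34) and with the replicate number as a block (0.39).

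**Figure D2:**
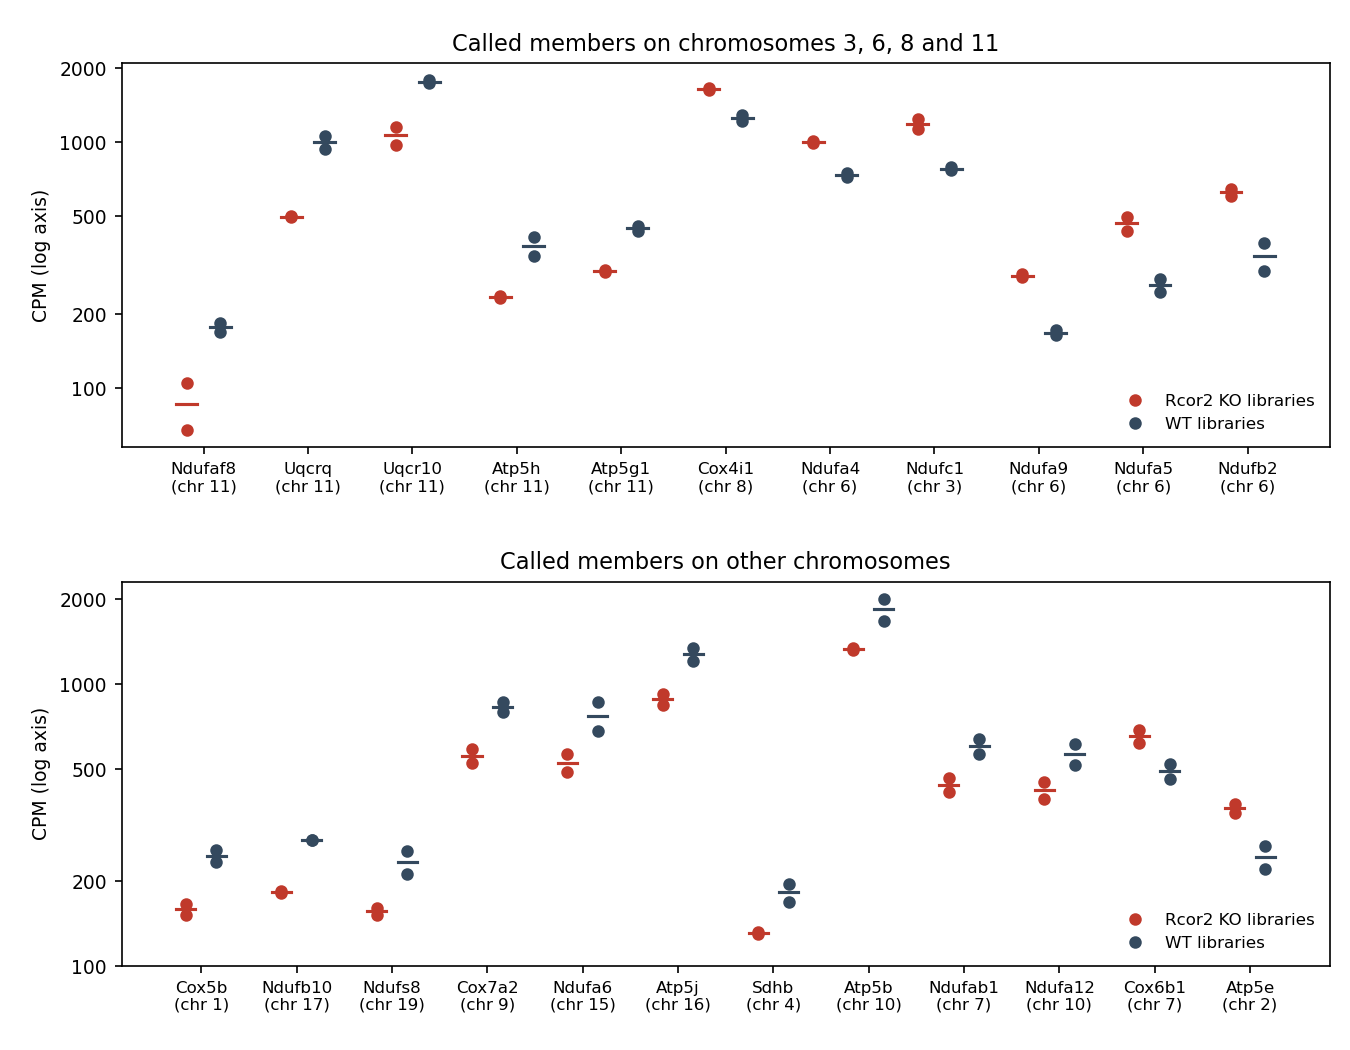
CPM on a log axis of the called members with over 10 CPM in WT, KO libraries left of WT libraries for each gene (points, libraries; bars, mean of 2), ordered by fold change, on chromosomes 3, 6, 8 and 11 (upper) and elsewhere (lower). In every gene shown the KO points do not overlap the WT points, from Ndufaf8 at 67.6 and 105 CPM in KO, against 184 and 168 in WT, to Ndufb2 at 642 and 606 in KO, against 389.9 and 299 in WT. Centred on their chromosomes, Ndufb2, Ndufa5, Ndufa9, Ndufa4 and Cox4i1 lie below 0.

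Complex I, the largest complex of the chain, had 44 tested genes, of which 4 rose and 6 fell, with a median of −0.19 (22.7% called, against 19.7% of all tested genes). The 4 that rose were the accessory subunits of chromosomes 3 and 6 described above, of which those of chromosome 6 lie below 0 centred. Off the 4 shifted chromosomes 29 of 36 were below 0, where all tested genes had a median of −0.05. Of the 36, 5 were called, all lower. That is 13.9% lower, against 8.09% lower and 6.02% higher of all tested genes there (14.1% in either direction). Ndufb10, in the membrane arm, had 182 and 185 CPM in KO, against 279 and 279 CPM in WT (log2 fold change −0.61, SE 0.16, edgeR adjusted p = 0.00449). Ndufs8, an iron-sulfur core subunit of the part that reduces ubiquinone, had 152 and 160.1 CPM in KO, against 257 and 213 CPM in WT (log2 fold change −0.59, SE 0.17, edgeR adjusted p = 0.008). Ndufa6, an accessory subunit of the matrix arm, had 565 and 488 CPM in KO, against 865 and 682 CPM in WT (log2 fold change −0.56, SE 0.15, edgeR adjusted p = 0.00428). All 3 had both KO libraries below both WT libraries, and so had the next pair. Ndufab1, the mitochondrial acyl carrier protein, which also serves fatty acid synthesis, had 464 and 414 CPM in KO, against 639 and 567 CPM in WT (log2 fold change −0.46, SE 0.15, edgeR adjusted p = 0.0206). Ndufa12 had 448 and 393 CPM in KO, against 612 and 517 CPM in WT (log2 fold change −0.43, SE 0.15, edgeR adjusted p = 0.0348). Centred, Ndufa12 was at −0.41 and no longer called (edgeR adjusted p = 0.0559), and the other 4 were called lower, from −0.57 to −0.44.

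Among other core subunits of complex I, those described here gave no call. They were Ndufv1 (−0.33, SE 0.19), Ndufs1 (−0.17, SE 0.20) and Ndufv2 (0.11, SE 0.15), which oxidise NADH, and Ndufs7 (−0.35, SE 0.16) and Ndufs3 (0.18, SE 0.41), which pass electrons to ubiquinone. Their signs differed within each part. The 8 assembly factors, which help build the complex without staying in it, were all below 0, with a median of −0.40, but only Ndufaf8 was called; the lowest of the others was Ndufaf5 at −0.47, SE 0.36. Leaving out 1 library ended some calls, without KO replicate 1 those of Ndufb10 (−0.59), Ndufs8 (−0.56), Ndufab1 (−0.54) and Ndufa12 (−0.52), without KO replicate 2 those of Ndufb10 (−0.62), Ndufs8 (−0.63), Ndufa6 (−0.46), Ndufab1 (−0.38) and Ndufa12 (−0.33), and without WT replicate 1 those of Ndufs8 (−0.43), Ndufa6 (−0.35), Ndufab1 (−0.35) and Ndufa12 (−0.28). Those of Ndufab1 and Ndufa12 were also lost without a filter on low counts (−0.44 and −0.40), and in a fit without chromosomes 3, 6, 8 and 11 (−0.41 and −0.38). That of Ndufa12 was lost with DESeq2 (−0.42) and with the replicate number as a block as well. Ndufs5 was listed at 0 in all 4 libraries and Ndufa11b had 2 and 1 counts in KO and 0 in WT, so neither was tested.

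Complex II, succinate dehydrogenase, has no subunit on a shifted chromosome. Its catalytic subunits were the lower pair. Sdhb, the iron-sulfur subunit, had 129.8 and 132 CPM in KO, against 196 and 169 CPM in WT (log2 fold change −0.48, SE 0.18, edgeR adjusted p = 0.0447). Sdha, the flavoprotein that oxidises succinate, had 206 and 198 CPM in KO, against 253 and 284 CPM in WT and missed the threshold (log2 fold change −0.41, SE 0.16, edgeR adjusted p = 0.0651). In both genes the KO libraries lay below the WT libraries. The membrane anchors Sdhc (0.11, SE 0.19) and Sdhd (0.03, SE 0.20) were not called. The Sdhb call was lost without KO replicate 1 (−0.47), without KO replicate 2 (−0.50), and without WT replicate 1 (−0.35). It was also lost with no filter on low counts (−0.46), with DESeq2 (−0.48), with chromosomes centred (−0.48) and in the fit that lacks those 4 chromosomes (−0.43). The replicate number as a block ended it too.

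In complex III the 2 genes that fell were Uqcrq and Uqcr10, both on chromosome 11, and the other 6 gave no call (25.0% called, against 19.7% of all tested genes). Uqcrfs1, the iron-sulfur (Rieske) protein, had 199 and 171 CPM in KO, against 257 and 239 CPM in WT (log2 fold change −0.42, SE 0.17, edgeR adjusted p = 0.0611), with KO below WT in every library. Uqcrh, which helps cytochrome c dock, had 338 and 325 CPM in KO, against 288 and 210.3 CPM in WT (log2 fold change 0.40, SE 0.16, edgeR adjusted p = 0.0677), with KO above WT in every library, and was called higher without WT replicate 1 (0.68). The core proteins Uqcrc1 (−0.00, SE 0.16) and Uqcrc2 (0.07, SE 0.19) and the small subunits Uqcrb (0.13, SE 0.15) and Uqcr11 (0.14, SE 0.14) lay within their SE of 0.

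Complex IV had 15 tested genes, of which 3 rose and 3 fell (40.0% called, against 19.7% of all tested genes). Off the shifted chromosomes 4 of 13 were called (30.8%, against 14.1% of all tested genes there). Both counts of calls include Cox7b2, whose fall was fixed by its having enough reads in WT alone. Besides Cox4i1 and Ndufa4, which lie below 0 centred, Cox6b1 rose. Cox5b, a zinc-binding subunit on the matrix side, had 166 and 152 CPM in KO, against 258 and 234 CPM in WT (log2 fold change −0.63, SE 0.17, edgeR adjusted p = 0.00409). Cox7a2, the widely expressed form of subunit 7a, had 587 and 524 CPM in KO, against 794 and 866 CPM in WT (log2 fold change −0.58, SE 0.14, edgeR adjusted p = 0.00226). Cox6b1, on the side of the intermembrane space, had 690.3 and 619 CPM in KO, against 522 and 460.2 CPM in WT (log2 fold change 0.41, SE 0.15, edgeR adjusted p = 0.0369). Each of these genes separated the groups completely, and each call held with chromosomes centred (−0.51, −0.57 and 0.43). Leaving out 1 library ended some calls, without KO replicate 1 that of Cox6b1 (0.33), without KO replicate 2 those of Cox5b (−0.57), Cox7a2 (−0.50) and Cox6b1 (0.49), and without WT replicate 2 that of Cox6b1 (0.33). That of Cox6b1 was also lost with libraries scaled by size alone (0.36), with DESeq2 (0.42) and with the replicate number as a block (0.42). The other widely expressed subunits, Cox5a, Cox6a1, Cox6c, Cox7b, Cox7c and Cox8a, ran from −0.19 to 0.24 without a call, and so did Cox7a2l, a factor that joins complexes III and IV, at −0.11, SE 0.17.

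Several subunits of complex IV have a second gene with restricted expression in the adult. Cox7b2, the testis form of Cox7b, was near 0 in KO, with 1 and 0 counts in KO, against 20 and 6 counts in WT. Its summed counts per depth in KO were 0.0295 times those in WT (exact 95% interval 0.000719 to 0.179, counting error only). It was called lower, a call lost without WT replicate 1. Cox7b2 had enough reads for a test in the WT libraries alone, so the test could only give a fall and is not used as support. Cox7b itself was at −0.06, SE 0.14. Cox6b2, the testis form of Cox6b1, did not follow it, with 135 and 143 CPM in KO, against 169 and 138 CPM in WT (−0.16, SE 0.18). Cox7a1, the heart and muscle form of Cox7a2, had 290.3 and 266 CPM in KO, against 278 and 274 CPM in WT (0.01, SE 0.16). The libraries of both genes overlapped between the groups. Too low to be tested were Cox8c (3 and 0 counts in KO, 0 and 2 in WT), Cox4i2 (2 and 0 in KO, 0 in WT), Cox6a2 (0 in KO, 1 and 0 in WT), Cox8b (0 in KO, 5 and 0 in WT) and Ndufa4l2, a paralog of Ndufa4 (4 and 2 in KO, 1 and 0 in WT).

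Of 16 tested genes of complex V, 1 rose and 4 fell (31.25% called, against 19.7% of all tested genes). In the catalytic head, Atp5b, the beta subunit that makes ATP, had 1343 and 1323 CPM in KO, against 2014 and 1675 CPM in WT (log2 fold change −0.47, SE 0.14, edgeR adjusted p = 0.0121). Atp5e, the epsilon subunit of the rotating stalk, went the other way, with 376 and 349 CPM in KO, against 266 and 222 CPM in WT (log2 fold change 0.57, SE 0.16, edgeR adjusted p = 0.00618). Both calls held with chromosomes centred, at −0.46 and 0.64, but that of Atp5b was lost in a fit without chromosomes 3, 6, 8 and 11 (−0.42, edgeR adjusted p = 0.0613, over the alternatives from 9.13e-07 to 0.217). The other head and stalk subunits Atp5a1 (0.12, SE 0.14), Atp5c1 (−0.27, SE 0.16) and Atp5d (0.18, SE 0.16) were not called. In the stalk that holds the head still, Atp5j, coupling factor 6, had 925 and 842 CPM in KO, against 1348 and 1211 CPM in WT (log2 fold change −0.53, SE 0.14, edgeR adjusted p = 0.004), and its call was lost with chromosomes centred (−0.38). Atp5h fell as described above, while Atp5o (−0.03, SE 0.15) and Atp5f1 gave no call. Leaving out 1 library ended some calls, without KO replicate 1 those of Atp5b (−0.48), Atp5e (0.51) and Atp5j (−0.60), and without KO replicate 2 those of Atp5b (−0.46) and Atp5j (−0.47), and Atp5b was still called without WT replicate 1, at −0.31.

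The c ring genes encode the same mature protein, and Atp5g3 (674 and 611 CPM in KO, against 726 and 674 CPM in WT; −0.13, SE 0.14) did not follow Atp5g1 past the threshold; the difference between them was not tested. Atp5g2 had 16 and 8 counts in KO and 10 and 1 in WT and was not tested. Summed over the 3 genes the level was 980.2 and 911 CPM in the KO libraries, against 1186 and 1112 CPM in the WT libraries, lower in both KO libraries. The 5 supernumerary subunits of the membrane part ran from −0.31 (Atp5md) to 0.28 (Atp5l, SE 0.49, with 11 to 57 counts a library) without a call.

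Summed over its genes, complex III separated the groups only with its genes of chromosome 11 included. Its 8 genes came to 3885 and 4018 CPM in the KO libraries, against 5268 and 4707 CPM in the WT libraries, lower in both KO libraries. Without Uqcrq and Uqcr10 the sum was 2409 and 2367 CPM in the KO libraries, against 2429 and 2036 CPM in the WT libraries, and the groups overlapped. Complex II came to 595 and 568 CPM in the KO libraries, against 701 and 674 CPM in the WT libraries, lower in both KO libraries. Complex V was lower as well, with 8422 and 8412 CPM in the KO libraries, against 10023 and 8958 CPM in the WT libraries. In complex I the libraries overlapped, at 13888 and 14094 CPM in the KO libraries, against 15496 and 14080.5 CPM in the WT libraries. Off the shifted chromosomes they separated, at 10067 and 10072 CPM in the KO libraries, against 12426 and 11191 CPM in the WT libraries. Complex IV overlapped, at 10636 and 10544 CPM in the KO libraries, against 10620.3 and 9715 CPM in the WT libraries. These sums are on the CPM scale, not per length, so highly counted genes set them, and 2 libraries against 2 cannot give an exact permutation p below 0.333 (two-sided).

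**Figure D3:**
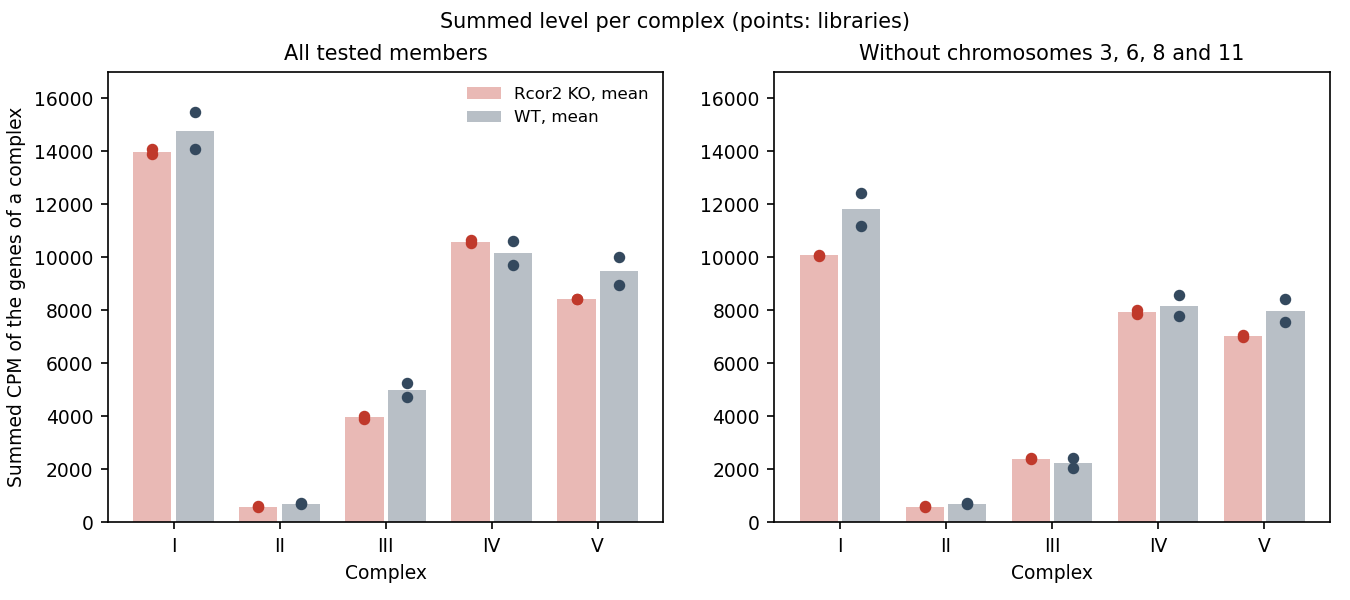
CPM summed over the tested genes of each complex in KO (left bar) and WT (right bar), with 1 point for each library and the bar at the mean of 2, for all tested members and without those of chromosomes 3, 6, 8 and 11. Complex III averaged 3951 ± 93.7 CPM in KO and 4988 ± 397 in WT (SD, n = 2 each), and 2388 ± 29.5 in KO and 2233 ± 278 in WT without chromosome 11.

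By complex, the median log2 fold changes were −0.19 for complex I, −0.19 for complex II, 0.03 for complex III, −0.08 for complex IV and −0.11 for complex V. Centred they were −0.18, −0.11, 0.05, −0.07 and −0.06 in the same order. With 1 library left out the medians ran from −0.25 to −0.10 in complex I, −0.31 to −0.094 in complex II, −0.17 to 0.21 in complex III, −0.20 to 0.04 in complex IV and −0.17 to 0.013 in complex V, so the sign of the last 3 depended on the libraries. Of the 15 members on the shifted chromosomes, 14 were below their chromosome's median. On the other chromosomes 47 of 72 members were below 0 when centred, so a lean below the median was not particular to the shifted ones.

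**Figure D4:**
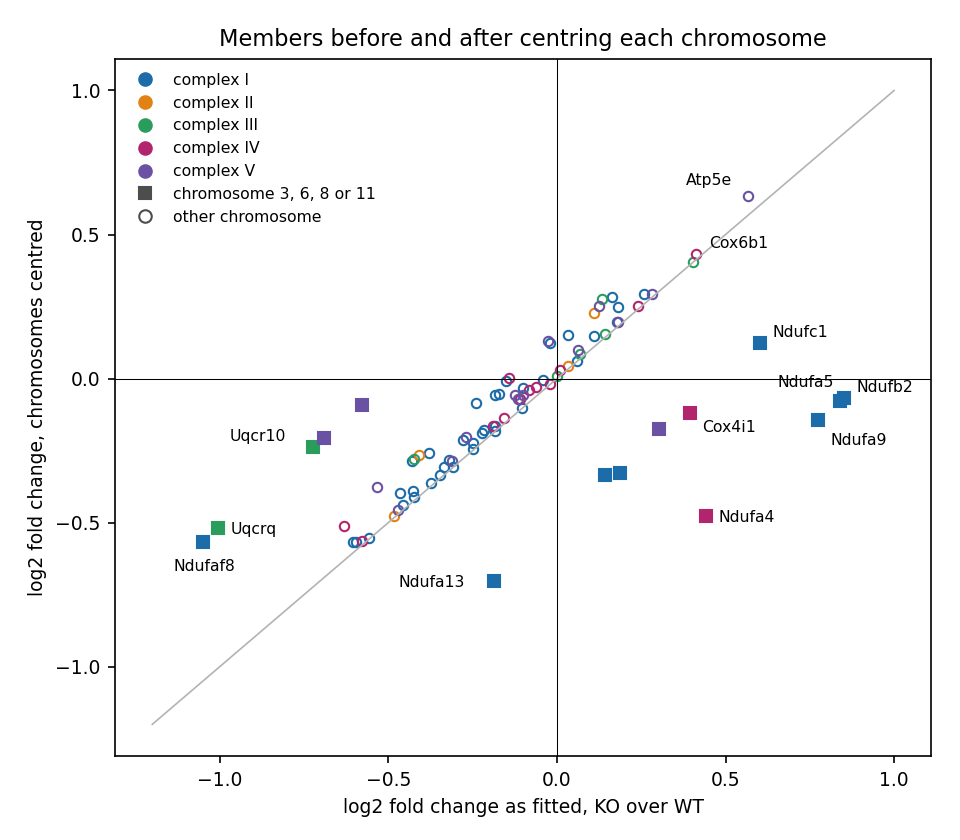
Log2 fold change, KO over WT, as fitted (x axis) and with each chromosome centred (y axis) for the tested respiratory chain genes except Cox7b2; squares are genes of chromosomes 3, 6, 8 and 11, open circles all others, coloured by complex, and the grey line marks equal values. The squares leave the line: the chromosome 6 genes Ndufa5, Ndufb2 and Ndufa9 move to between −0.14 and −0.07, Ndufa4 and Ndufa13 to −0.48 and −0.70, and Uqcrq and Ndufaf8 of chromosome 11 stay below 0.

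Other genes that serve the chain were counted from lists, beside the 19.7% called of all tested genes. Of assembly factors outside the name rule 1 rose and 5 fell of 38 tested (42 listed; 15.8% called, below that background), with a median of −0.12. The largest fall was that of Lyrm7, on chromosome 11, a chaperone of the Rieske protein Uqcrfs1. It had 4.83 and 3.66 CPM in KO, against 40.9 and 50.3 CPM in WT (log2 fold change −3.37, SE 0.43, edgeR adjusted p = 1.25e-08), at −2.89 centred, and was called with any 1 library left out. Uqcc2, which serves the assembly of cytochrome b, had 247 and 242 CPM in KO, against 357 and 354 CPM in WT (log2 fold change −0.54, SE 0.15, edgeR adjusted p = 0.00822). Cox17, a copper chaperone of complex IV, had 526 and 513 CPM in KO, against 864 and 709 CPM in WT (log2 fold change −0.60, SE 0.15, edgeR adjusted p = 0.00169). In these 3 genes both KO libraries lay below both WT libraries. Ttc19 of chromosome 11 (−0.93, SE 0.34, −0.45 centred) and Nubpl (−0.97, SE 0.32) also fell, and Cmc2 of chromosome 8 rose (1.07, SE 0.26, 0.56 centred). The calls of Ttc19 and Cmc2 were lost on centring, and those of Ttc19 and Nubpl with DESeq2 (−0.93 and −0.94). That of Ttc19 was also lost without a filter on low counts (−0.91) and with the replicate number as a block (−0.93). Leaving out 1 library ended calls, without KO replicate 1 those of Uqcc2 (−0.56), Cox17 (−0.62), Ttc19 (−1.02) and Nubpl (−0.92), without KO replicate 2 those of Uqcc2 (−0.52), Cox17 (−0.58), Ttc19 (−0.86) and Nubpl (−1.02), without WT replicate 1 those of Ttc19 (−1.01) and Nubpl (−0.13), and without WT replicate 2 that of Ttc19 (−0.85).

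Cytochrome c carries electrons from complex III to complex IV. Its testis form Cyct had 20.4 and 23.5 CPM in KO, against 361 and 354 CPM in WT (log2 fold change −4.03, SE 0.20, edgeR adjusted p = 7.08e-24), with KO below WT in both libraries. The other tested genes of that list gave no call, Cycs of chromosome 6 (0.25, SE 0.25, −0.67 centred) and the complex III subunit Cyc1 (−0.34, SE 0.16). Of the enzymes of pyruvate dehydrogenase and the citrate cycle, 3 rose and 1 fell of 16 tested (25.0% called). Citrate synthase (Cs) had 89.0 and 86.3 CPM in KO, against 52.7 and 51.8 CPM in WT (log2 fold change 0.75, SE 0.23, edgeR adjusted p = 0.0156), and Pdha1, the alpha subunit of pyruvate dehydrogenase, was at 0.54, SE 0.16. Suclg1 of chromosome 6 rose (0.72, SE 0.16, −0.19 centred) and Ogdh of chromosome 11 fell (−0.89, SE 0.21, −0.41 centred), and both calls were lost on centring. Of coenzyme Q synthesis genes 2 of 11 tested were called, all lower (18.2%): Coq3 (−0.86, SE 0.25) and Coq7 (−0.70, SE 0.18). DESeq2 did not call Cs (0.75) or Coq3 (−0.85). With 1 library left out calls were lost, without KO replicate 1 those of Cs (0.72), Pdha1 (0.54), Coq3 (−0.81) and Coq7 (−0.58), without KO replicate 2 those of Cs (0.77), Pdha1 (0.55) and Coq3 (−0.90), and without WT replicate 1 those of Cs (0.78), Pdha1 (0.48), Coq3 (−0.67) and Coq7 (−0.45).

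Of nuclear factors known to bind or coactivate respiratory genes, 3 of 8 tested were called, all higher (37.5%), and 2 of these lie on shifted chromosomes. Esrra, an orphan nuclear receptor, had 82.8 and 20.9 CPM in KO, against 22.8 and 23.6 CPM in WT (log2 fold change 1.20, SE 0.35, edgeR adjusted p = 0.0107); the rise came from 1 KO library, the groups overlapped, and without KO replicate 1 Esrra was at −0.15 and not called, and without KO replicate 2 at 1.84. Gabpb2, a partner of the ETS factor Gabpa, had 37.6 and 49.7 CPM in KO, against 16.9 and 13.7 CPM in WT (log2 fold change 1.48, SE 0.35, edgeR adjusted p = 0.00113), at 1.01 centred on chromosome 3. Nrf1, nuclear respiratory factor 1, had 35.6 and 50.7 CPM in KO, against 27.4 and 13.7 CPM in WT (log2 fold change 1.00, SE 0.34, edgeR adjusted p = 0.0275), at 0.08 centred on chromosome 6. Its call was lost without KO replicate 2 (0.74), and without WT replicate 2 (0.64), on centring, and with libraries scaled by size alone (0.95), and it was at 1.66 without WT replicate 1. DESeq2 called neither Nrf1 (1.03) nor Esrra (1.17). Of the genes for upkeep and transcription of mitochondrial DNA 1 rose and 2 fell of 12 tested (25.0% called). Tefm, the elongation factor of mitochondrial RNA polymerase, on chromosome 11, had 33.1 and 24.1 CPM in KO, against 93.2 and 90.7 CPM in WT (log2 fold change −1.67, SE 0.26, edgeR adjusted p = 1.09e-06), at −1.18 centred. Polg2 of chromosome 11 fell (−1.53, SE 0.46, −1.05 centred) and Ssbp1 of chromosome 6 rose (0.54, SE 0.18, −0.38 centred). Both calls were lost on centring and with DESeq2 (−1.53 and 0.54), and that of Ssbp1 with libraries scaled by size alone (0.48). With 1 library left out calls ended, without KO replicate 1 those of Polg2 (−1.30) and Ssbp1 (0.68), without KO replicate 2 that of Ssbp1 (0.39), and without WT replicate 1 those of Polg2 (−1.50) and Ssbp1 (0.49).

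RCOR2, a corepressor of the CoREST family that works with the histone demethylase LSD1, had a peak at most respiratory chain genes, as at most expressed genes. A summit lay within 1 kb of an end of the gene for 66 of 95 members, and for 64 of the 87 tested ones (73.6%), beside 67.7% of tested protein-coding genes and 44.9% of all placed ones. With peaks of a −log10 q of at least 5 the shares were 49.4% of tested members, 40.9% of tested genes and 26.6% of all placed ones. The share of members lay above that of tested genes by under 10 percentage points at both settings, and was read as near the background. The fold and the −log10 q of a peak are the authors' values, from libraries merged before peak calling, so there are no replicates.

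The peaks sat at the start of the genes. Among the 73 tested members whose strand is known, 51 (69.9%) had a summit within 1 kb of the start and 3 (4.11%) within 1 kb of the far end, beside 65.6% and 6.47% of all tested genes with a strand. In a short gene, such as Cox6b2, the same summit can lie within 1 kb of both ends. The median summit lay 154 bp inside the gene, with quartiles of 30.0 and 266 bp, and over all such genes 136 bp, with quartiles of −124 and 364 bp. For 28 members the strongest peak was also within 1 kb of an end of another protein-coding gene, so it cannot be assigned to the respiratory chain gene alone. The 29 members with no summit within 1 kb of an end were Ndufa10, Ndufa11, Ndufa6, Ndufa7, Ndufa8, Ndufb10, Ndufb11, Ndufs5, Ndufaf1, Ndufa11b, Ndufb4c, Sdhd, Uqcr11, Uqcrb, Cox5a, Cox7a2, Cox7b, Cox7c, Cox7a2l, Cox4i2, Cox6a2, Cox7a1, Cox7b2, Cox8b, Cox8c, Atp5g1, Atp5g3, Atp5k and Atp5md.

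The 5 strongest peaks lay at Atp5e, Sdhb, Cox5b, Ndufs4 and Atp5a1 (GRCm38 coordinates). The peak at Atp5e (chr2:174463538-174464092, 11.5-fold enriched, −log10 q of 30.4) had its summit 176 bp inside the gene, and Atp5e was the gene of complex V that rose. At Sdhb (chr4:140961303-140961950, 9.64-fold enriched, −log10 q of 22.6) the summit was 183 bp inside the gene, and at Cox5b (chr1:36691068-36691701, 9.64-fold enriched, −log10 q of 22.6) 295 bp before it; both genes fell. At Ndufs4 (chr13:114387524-114388185, 8.73-fold enriched, −log10 q of 19.4), a complex I accessory subunit at −0.15, SE 0.16, it was 154 bp inside. At Atp5a1, the alpha subunit of the ATP synthase head, the peak (8.73-fold) was also within 1 kb of Haus1. Of the 4 genes with no other gene end within 1 kb of the summit, 1 rose, 2 fell and 1 was not called. Of all tested genes with a peak of a −log10 q of at least 5, 20.1% were called. Each of these members' calls was lost with some 1 library left out, and that of Sdhb also on centring. Whether binding goes with a change was not tested. On the shifted chromosomes, the peak at Uqcr10, also within 1 kb of Zmat5, had a −log10 q of 15.4, while Atp5g1 had none and Atp5h (3.23) and Ndufa4 (1.90) had weak ones.

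Genes that fell were found among members with and without a peak. With a peak of a −log10 q of at least 5, 6 rose and 8 fell of 43, with a median of −0.16 (−0.16 centred). With a weaker peak 2 rose and 3 fell of 21, with a median of −0.18 (−0.17 centred). With none, 5 of 23 were called, all lower, with a median of −0.11 (−0.06 centred). Those with none that fell were Ndufa6, Ndufb10, Cox7a2, Cox7b2 and Atp5g1, of which Cox7b2 had enough reads for a test in WT alone. The shares called were 32.6%, 23.8% and 21.7% of these members, in that order, against 20.1%, 19% and 19.5% of all tested genes of the class. The same medians over all tested genes were −0.02, −0.03 and −0.00. These are counts, and the difference between the classes was not tested.

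**Figure D5:**
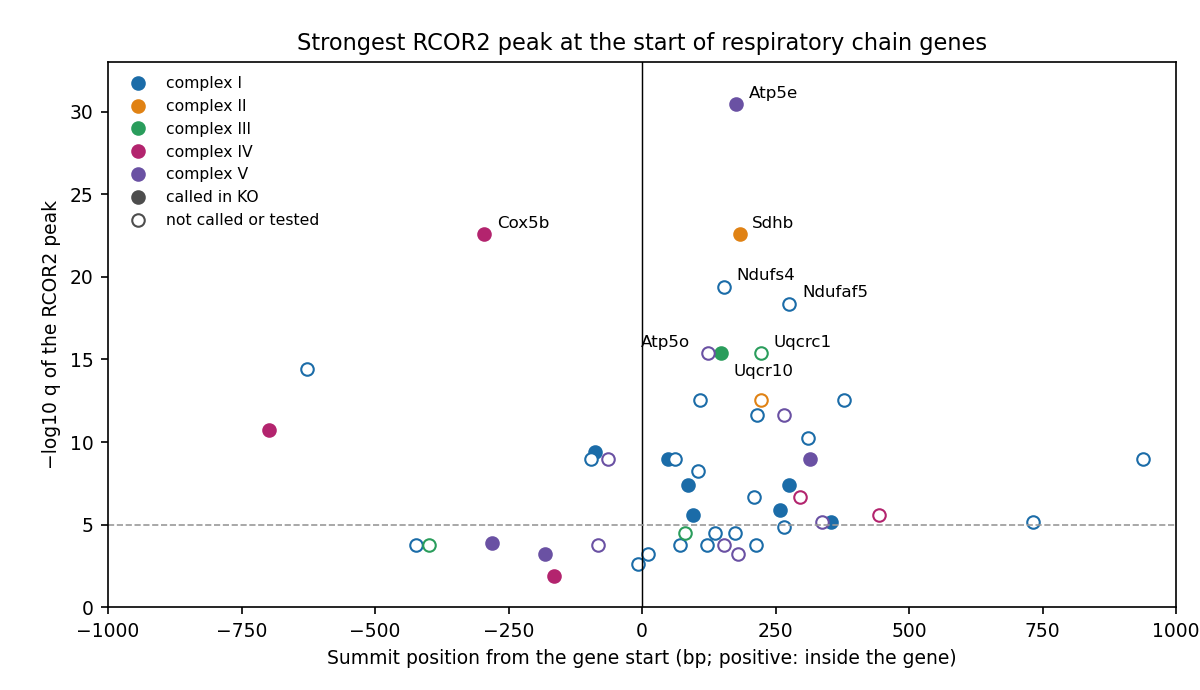
Position of the strongest RCOR2 summit from the gene start in bp (x axis, positive inside the gene) and −log10 q of the peak (y axis) for the respiratory chain genes with a known strand and a summit within 1 kb of the start, coloured by complex and filled where the gene was called in KO against WT; the dashed line marks a −log10 q of 5. Most points lie just inside the gene, with Atp5e highest at 30.4, and filled points are found both above and below the dashed line. Cox6b2, a short gene whose strongest summit lies within 1 kb of both of its ends, is not shown.

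Promoter sequences, from RefSeq on GRCm38.p6, were matched for 76 of the 95 members, of which 73 were tested. Letters of sites known from respiratory chain promoters were searched on both strands from 250 bases before to 50 after the outermost start site. The NRF1 site GCGCATGCG was found in 9 of 73 (12.3%, against 4.28% of tested genes and 2.37% of all genes with a promoter). The GABP site CCGGAAG was found in 18 of 73 (24.7%, against 20.3% of tested genes and 11.7% of all genes with a promoter), the YY1 site AAGATGGCG in 7 of 73 (9.59%, against 3.71% of tested genes and 1.89% of all genes with a promoter), and the estrogen-related receptor site TCAAGGTCA in 2 of 73 (2.74%, against 0.181% of tested genes and 0.354% of all genes with a promoter). The SP site GGGCGG was found in 34 of 73 (46.6%, against 67.2% of tested genes and 45.9% of all genes with a promoter) and the NF-Y site CCAAT in 34 of 73 (46.6%, against 40.4% of tested genes and 39.4% of all genes with a promoter). Member promoters had a median GC content of 57.8%, beside 61.3% of tested genes. These shares are descriptions, and a match is not shown to be a bound site.

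The 250 bases before the start are shown for 8 members: those with the strongest peaks that have a promoter in the table, Atp5e (chr2:174464102-174464351, minus strand), Sdhb (chr4:140961021-140961270, plus strand), Cox5b (chr1:36691237-36691486, plus strand) and Ndufs4 (chr13:114388095-114388344, minus strand), and called genes of different chromosomes, Uqcr10 (chr11:4704345-4704594, minus strand), Ndufb2 (chr6:39592315-39592564, plus strand), Ndufc1 (chr3:51408956-51409205, minus strand) and Cox7b2 (chr5:71548206-71548455, minus strand). Each runs 5′ to 3′ on the strand of the gene, and capitals mark the searched letters on either strand. Most summits lie past the end of these stretches, inside the gene, and the summit of Cox5b lies before its stretch.

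Atp5e: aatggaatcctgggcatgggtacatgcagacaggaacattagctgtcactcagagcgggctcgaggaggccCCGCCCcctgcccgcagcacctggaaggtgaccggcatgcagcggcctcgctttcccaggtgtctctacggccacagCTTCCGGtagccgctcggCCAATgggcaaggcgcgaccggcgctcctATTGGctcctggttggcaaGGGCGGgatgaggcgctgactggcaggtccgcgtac

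Sdhb: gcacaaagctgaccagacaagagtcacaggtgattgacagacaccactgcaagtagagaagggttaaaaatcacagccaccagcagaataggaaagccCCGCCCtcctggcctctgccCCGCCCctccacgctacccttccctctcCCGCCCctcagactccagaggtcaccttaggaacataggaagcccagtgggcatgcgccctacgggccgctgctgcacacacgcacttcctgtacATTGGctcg

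Cox5b: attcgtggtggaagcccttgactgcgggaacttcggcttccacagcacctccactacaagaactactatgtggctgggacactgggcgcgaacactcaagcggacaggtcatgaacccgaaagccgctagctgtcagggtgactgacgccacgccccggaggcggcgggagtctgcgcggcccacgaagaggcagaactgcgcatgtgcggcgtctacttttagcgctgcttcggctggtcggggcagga

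Ndufs4: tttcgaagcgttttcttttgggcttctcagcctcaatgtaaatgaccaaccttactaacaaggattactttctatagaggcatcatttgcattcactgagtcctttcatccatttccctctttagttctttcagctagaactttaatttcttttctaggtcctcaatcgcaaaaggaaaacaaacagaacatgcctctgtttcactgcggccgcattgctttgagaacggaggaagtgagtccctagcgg

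Uqcr10: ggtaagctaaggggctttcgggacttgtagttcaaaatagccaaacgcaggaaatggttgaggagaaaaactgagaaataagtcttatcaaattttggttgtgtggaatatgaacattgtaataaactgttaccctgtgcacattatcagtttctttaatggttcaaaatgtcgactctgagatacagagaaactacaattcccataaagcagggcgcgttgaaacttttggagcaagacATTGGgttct

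Ndufb2: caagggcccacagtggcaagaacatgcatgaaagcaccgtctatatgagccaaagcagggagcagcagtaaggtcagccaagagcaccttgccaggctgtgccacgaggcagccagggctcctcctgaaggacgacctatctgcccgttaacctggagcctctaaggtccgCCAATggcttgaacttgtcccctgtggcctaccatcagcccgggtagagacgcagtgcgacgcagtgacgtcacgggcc

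Ndufc1: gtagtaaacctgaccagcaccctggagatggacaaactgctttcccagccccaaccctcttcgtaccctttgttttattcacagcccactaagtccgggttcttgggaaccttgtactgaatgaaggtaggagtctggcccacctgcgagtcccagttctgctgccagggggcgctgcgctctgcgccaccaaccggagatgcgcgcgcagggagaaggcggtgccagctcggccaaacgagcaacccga

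Cox7b2: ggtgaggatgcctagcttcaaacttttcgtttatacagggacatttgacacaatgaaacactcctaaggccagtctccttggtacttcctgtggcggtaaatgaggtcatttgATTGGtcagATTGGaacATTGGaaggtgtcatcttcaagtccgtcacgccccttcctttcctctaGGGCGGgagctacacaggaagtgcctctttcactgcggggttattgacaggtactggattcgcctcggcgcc

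The stretch of Atp5e, the gene with the strongest peak, held the GABP letters at 102 bases before the start, SP letters at 179 and 36, and NF-Y letters at 84 and 55. Sdhb held SP letters at 152, 132 and 104 and NF-Y letters at 9. Cox7b2, which was near 0 in KO and had no peak, held NF-Y letters at 137, 128 and 120 and SP letters at 72. Uqcr10 and Ndufb2, which moved in opposite directions with their chromosomes, held only NF-Y letters, at 10 and 79 bases in that order. Cox5b, Ndufs4 and Ndufc1 held none of the searched letters in the stretch shown. The searched window runs past the start, beyond these stretches. Over that whole window Ndufs4 and Ndufc1 held the YY1 letters and Sdhb the GABP letters, while Cox5b still held none. GC content of the stretches shown ran from 38.8% (Uqcr10) to 65.6% (Atp5e).

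Some counts carry limits from the annotation. The intervals of 20 members overlap that of another counted gene, among them 4 of the called members: Uqcrq with Gdf9, Cox7a2 with Tmem30a, Atp5b with Mir677 and Atp5j with Gabpa. The sources used here do not say whether counting used strand, and many respiratory chain genes have processed pseudogenes, so values such as the 0 of Ndufs5 and the low counts of Atp5l and Atp5g2 are uncertain as levels.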

How the data were processed

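For RNA, the authors deposited whole-number counts of reads for each gene symbol. Per the submitters' processing notes the tools included STAR 2.5.2b, featureCounts (Subread), Trimmomatic 0.36 and SAMtools 1.8, with builds GRCm38 and mm10. RCOR2 peaks, called on merged libraries per their names in the deposited list, carry a fold (the ratio to control at the summit), a −log10 q and a summit offset score as the authors deposited them; the notes name MACS2 2.1.1.20160309 and Bowtie2 2.3.4.1. The list holds 53366 peaks on chromosomes, with a −log10 q down to 1.31.

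Counts were tested with edgeR 4.0.16 (R 4.3.3): filterByExpr, TMM scaling, quasi-likelihood test, Benjamini-Hochberg adjustment over all tested genes, two-sided. The SE is the size of the log2 fold change over the root of F, and CPM use TMM-scaled library sizes. The script was tested on simulated data. Centring added each chromosome's median to the offset of the KO libraries. RefSeq GRCm38.p6 placed 25027 of 25131 genes. A peak was assigned by its summit within 1000 bp of an end of the gene interval. The start was the interval end on the side given by the strand of the RefSeq promoter entry. Of 18648 genes with such an entry, 11802 had a start site exactly at that end. For the others, distances from the start are from the interval end and not from a start site. Positions are 1-based. Alternatives were DESeq2 1.42.0, limma-voom (limma 3.58.1), other scalings and filters, each library left out, and a replicate block. Replicates differed by more than counting noise (chi-square over degrees of freedom 4.40 in KO and 4.98 in WT).

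The members and lists were chosen with earlier results of these data known. The text names every called member, every tested member on chromosomes 3, 6, 8 and 11, the extremes of each complex, untested and tissue-restricted members, the 5 strongest peaks, members without a peak and every called gene of the other lists; other genes it names were chosen after their values were seen. The NRF1 letters were shortened by 1 base after a first search had been seen. The values of 1 member are not reported here. The pull-down of the Nanog promoter and the input, control and ATAC-seq samples were not used here.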

Additional observations from a re-analysis of the deposited data

How the results depend on the processing

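With 1 library left out, members called higher numbered 4 to 11 and lower 5 to 19, on chromosomes 3, 6, 8 and 11 7 to 12 and elsewhere 2 to 15, other genes of the pathway 4 to 8 higher and 4 to 11 lower, and the median of complex II ran from −0.31 to −0.094. The share of all tested genes called was taken only in the main fit and with chromosomes centred, so counts under other settings have no background beside them. With chromosomes centred, 2 members were called higher, 4 on the shifted chromosomes, and 4 other pathway genes higher. With the genes of those chromosomes left out of the fit, 2 members were called higher and 6 lower, 8 in all, and 3 and 6 other pathway genes; the cause of the lower count was not tested. DESeq2 called 4 and 7 other pathway genes. Directions reversed with centring for Ndufa4 (−0.48), Ndufa5 (−0.079), Ndufa9 (−0.14), Ndufb2 (−0.067) and Cox4i1 (−0.12), by the construction of that alternative. With the replicate number as a replicate block, 6 members were called higher and 14 lower. With the block and centring together, an alternative chosen after seeing the data, 1 was called higher and 9 lower, 4 on the shifted chromosomes and 6 elsewhere, with 3 and 6 other pathway genes, and the same 5 genes were at −0.48, −0.082, −0.15, −0.053 and −0.12 in that order. Nothing says that the numbers pair the libraries, and same-numbered libraries did not deviate together (correlation −0.05). Alternatives for the other pathway genes were also chosen after seeing the data. Of 34 named members with a value, the call and direction were kept by 34 under limma-voom, 34 under DESeq2 size factors, 32 by library size, 31 with no filter, 31 under DESeq2, 30 under the block, 21 and 19 without KO replicate 1 or 2, 25 and 33 without WT replicate 1 or 2, 18 with chromosomes centred, 14 with both, and 14 of the 18 left with the shifted chromosomes out. Of all 95 members, tested or not, 64 had an RCOR2 summit within 500 bp of a gene end (67.4%, against 58.3% of tested genes). Within 5 kb 76 had one (80.0%, against 81.1%). Within 1 kb and with a −log10 q of at least 5, 44 had one (46.3%, against 40.9%). Depth limits the low genes: the SE of Atp5l was 0.49, beside 0.14 to 0.20 for the called members other than Cox7b2.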
